A study of Drosophila melanogaster with 2 samples.

Results

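The genes named for proteins of the cytosolic ribosome are 93 of the 13945 protein-coding genes annotated on the 6 main chromosome arms of Drosophila melanogaster. They were taken by symbol from the Ensembl annotation of the BDGP6 assembly. The symbols were RpL or RpS followed by a digit or by P and a digit, plus sta. The rule uses no binding values, though the list was chosen with earlier results of these data known. The large subunit list held 54 genes and the small subunit list 39. Both lists count genes with -like in the symbol, and whether each member is part of the mature ribosome was not checked. The assay was ChIP-seq of the zinc-finger protein CG10348 in whole pupae aged 2 days, from transgenic flies that expressed it fused to eGFP, a green fluorescent protein, and the precipitation used an anti-GFP antibody. Both libraries, biological replicates 1 and 2, belong to 1 group of 2 samples, and no untagged or second condition was analysed here, so these genes are set beside all protein-coding genes of the same assay. The strain is labelled CG10348-GFP, the sex of the animals was not collected, and the promoter behind the fusion is not given in the sources used here. Whole animals mix all pupal tissues, and binding in any 1 cell type cannot be told apart from binding in many.

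Ribosomal proteins assemble with rRNA into the large and the small subunit of the ribosome, and the cell makes them in near-equal amounts. In Drosophila their genes are among the most strongly transcribed, and loss of 1 copy of many of them gives the slow-growing, thin-bristled Minute phenotype. Many of their promoters lack a TATA box and start at a polypyrimidine TCT initiator, and their transcription uses the TBP-related factor Trf2. Some carry the DRE bound by Dref or the Motif 1 bound by M1BP. Some members exist as gene pairs, of which 1 copy is known for use in the germ line.

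A gene was called bound when a peak of the authors' conservative list had its summit within 1 kb of any transcription start site (TSS) of the gene. That list holds regions whose rank was reproducible between the replicates by the irreproducible discovery rate (IDR). Of the 93 ribosomal protein genes 6 were bound, which is 6.45% (95% Wilson interval 2.99 to 13.4), against 7.7% of all protein-coding genes (1074 of 13945). The interval holds the background share, so the number of bound genes does not set this list apart. The bound members were RpL32, RpS19b, RpL34b, RpL23, RpS27 and RpL14. Each had a single peak, and the 6 peaks were separate. No test was run on the gene list, and depth was unknown because the lists give no read counts.

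The sequence between the start sites of the bound gene and its neighbour on the opposite strand is shown for RpL14, RpS27 and RpL34b, since these stretches lie under or beside their peaks. For RpL32 the 200 bases around the summit are shown, and for RpS19b, whose summit lies outside the stretch between the start sites, the 100 bases around the summit. All are from the RefSeq genome of the dm6 assembly, written 5′ to 3′ on the strand of the ribosomal protein gene. Capitals mark AAATAT or its reverse complement. The DRE, Motif 1 core and E-box letters sought beside it occur in none of these 5 stretches. From 250 bp before to 50 bp after the TSS with most transcripts, the Motif 1 core was at RpL14. In the same window the E-box was at RpL32 and RpL34b.
RpL32, chr3R:30046211-30046410, minus strand: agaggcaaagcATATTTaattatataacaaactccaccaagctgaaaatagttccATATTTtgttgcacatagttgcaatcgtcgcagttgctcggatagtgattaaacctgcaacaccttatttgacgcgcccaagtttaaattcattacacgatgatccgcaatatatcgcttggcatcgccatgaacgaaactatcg
RpS19b, chr3R:23934359-23934458, minus strand: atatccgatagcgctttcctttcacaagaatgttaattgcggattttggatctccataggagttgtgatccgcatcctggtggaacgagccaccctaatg
RpL34b, chr3R:9401227-9401494, minus strand: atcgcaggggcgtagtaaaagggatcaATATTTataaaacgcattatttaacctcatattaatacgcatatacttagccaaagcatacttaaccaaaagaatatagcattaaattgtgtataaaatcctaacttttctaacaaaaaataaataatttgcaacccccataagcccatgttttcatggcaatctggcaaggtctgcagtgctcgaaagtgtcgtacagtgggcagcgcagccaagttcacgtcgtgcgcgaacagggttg
RpS27, chr3R:25247515-25247657, minus strand: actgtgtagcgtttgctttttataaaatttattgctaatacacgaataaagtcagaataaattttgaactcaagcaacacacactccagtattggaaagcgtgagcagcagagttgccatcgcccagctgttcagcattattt
RpL14, chr3L:8600880-8601005, plus strand: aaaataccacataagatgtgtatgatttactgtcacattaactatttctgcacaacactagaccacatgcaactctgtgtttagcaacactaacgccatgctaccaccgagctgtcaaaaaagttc

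RpL32, a large subunit protein whose transcript is a common reference in fly expression assays, had the strongest peak. The authors' pooled signal, a peak strength of unstated scale, was 157 at chr3R:30046143-30046478, rank 315 of the 1814 conservative peaks. Its summit was intergenic, 150 bp upstream of an RpL32 TSS. In each replicate's own list the region had a signal of 81.9 in replicate 1 and 69.2 in replicate 2, and both replicates called it on their own. The summit stood 159 bp from the TSS of CG7943, which is transcribed the other way, so the pooled summit lay near the middle of the 2 start sites.

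RpS19b had a pooled signal of 154 at chr3R:23934241-23934576 (rank 325). RpS19b encodes a small subunit protein and is the copy of RpS19 known for expression in the germ line. The replicates' own values were 85.8 in replicate 1 and 69.5 in replicate 2, again called in both. This summit was 879 bp upstream of the RpS19b TSS and in an intron of the neighbour CG5854, 497 bp inside that gene, so it was nearer to the start of CG5854 than to that of the ribosomal protein gene. With each summit given only to the gene of its nearest TSS, RpS19b was no longer bound and 5 members were (5.38%, against 5.68% of all genes).

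The other 4 peaks were weak within the conservative list. RpL34b, 1 of a pair of genes for a large subunit protein, had a pooled signal of 75.1 at chr3R:9401172-9401507 (rank 1132), with 34.0 in replicate 1 and 46.1 in replicate 2, and only replicate 2 called it on its own. RpL23, a large subunit protein, had 68.6 at chr2R:22853956-22854291 (rank 1276), with 30.9 and 26.1 in replicates 1 and 2, and neither replicate called it alone. RpS27, a small subunit protein with a zinc-finger fold, had 67.7 at chr3R:25247337-25247672 (rank 1296), with 39.3 in replicate 1, which called it, and 25.1 in replicate 2, which did not. RpL14, a large subunit protein, had 54.0 at chr3L:8600777-8601112 (rank 1650), with 31.6 and 24.1, called by neither replicate alone and absent from the authors' second thresholded list, here called the optimal list.

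**Figure D1:**
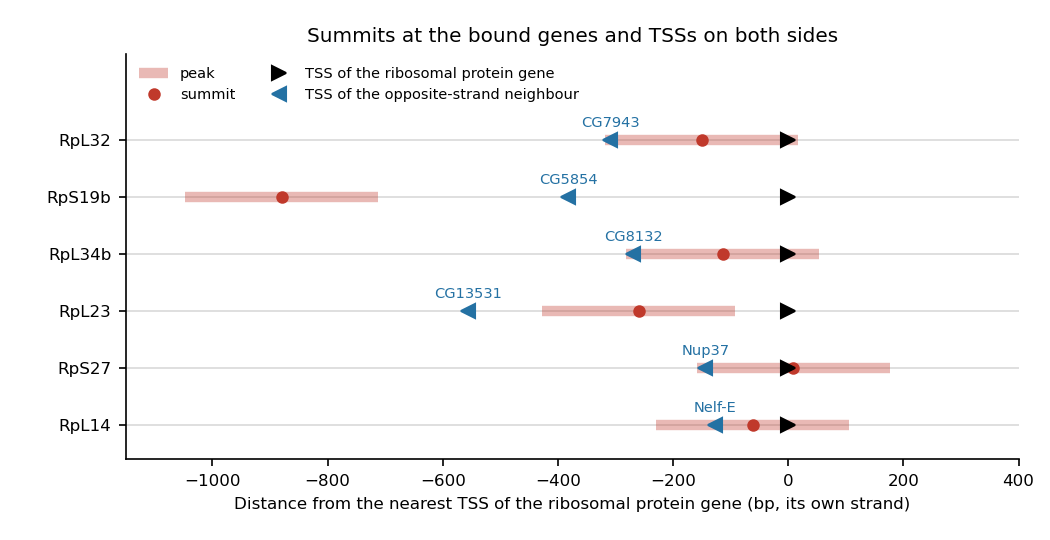
Position of the conservative summit (red point), the peak (pale red bar), the nearest TSS of the ribosomal protein gene (black arrowhead, at 0) and the TSS of the opposite-strand neighbour (blue arrowhead) for the 6 bound genes, in bp along the ribosomal protein gene's own strand. In 4 genes the summit lies between both start sites, at RpS27 it lies 9 bp inside the gene, and at RpS19b it lies beyond the start of CG5854.

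The median summit distance from the nearest TSS was 132 bp at the 6 bound members, against 206 bp over all bound genes of the conservative list. With the optimal list the median at its 6 members was 204 bp. Summits of 5 of the 6 members were upstream of the TSS (83.3%), against 81.8% of all bound genes. RpL32, RpL34b, RpL23 and RpL14 were bound from 61 to 259 bp upstream, and the RpS27 summit lay 9 bp downstream, in its 5' UTR. The median pooled signal of the 6 peaks was 71.9, against 104 over all bound genes. All 6 peaks had a width of 336 bp, as did 89.4% of conservative peaks, and in peaks of that width the deposited summit was the midpoint in 100% of cases. The replicates' own summits at the 6 genes stood 0 to 74 bp from the pooled one.

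Around the reproducibility limit, an IDR of 0.01, RpL14 (IDR 0.00824) and RpL23 (0.00619) lay just inside it, and RpS28b (0.0148) and RpL10Ab (0.0193) just outside it. RpL10Ab, a large subunit protein, had a pooled signal of 59.6 at chr3L:11822309-11822644, above that of RpL14, with 41.0 in replicate 1 and 20.2 in replicate 2. It entered the optimal list, which bound 6 members (6.45%, against 8.16% of all genes), and replicate 1's own list. RpS20, a small subunit protein, was called by replicate 1 alone, with a signal of 53.3 in that replicate's list and 20.1 in replicate 2's. Replicate 1's own list thus bound 5 members (5.38%, against 6.17% of all genes) and replicate 2's own list 3 members (3.23%, against 4.96%). RpL32 and RpS19b were the only members called in both, and with an IDR of 0.001 or less they were the only bound members (2.15%, against 4.35% of all genes).

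The count was repeated with other definitions of a bound gene. Within 250 bp of a TSS 4 members were bound (4.3%, against 4.63% of all genes), within 500 bp 5 (5.38%, against 6.09%) and within 2000 bp 8 (8.6%, against 10.2%). With only the 5'-most TSS of each gene 6 members were bound (6.45%, against 6.39%). The other counts allow any annotated TSS, a mean of 1.7 at members and 1.41 at all genes. With any base of a peak within 1 kb also 6 were bound (6.45%, against 8.09%). The stronger of the conservative peaks, those at or above the median signal, bound RpL32 and RpS19b alone (2.15%, against 4.9%).

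Every bound member had a divergent neighbour, defined as a protein-coding gene on the opposite strand whose TSS lay upstream within 1 kb, head to head. Ribosomal protein genes had such a neighbour in 56 of 93 cases (60.2%), against 36.2% of all protein-coding genes. Of these 56 divergent members 6 were bound (10.7%), against 12.2% of all genes with a divergent neighbour. Among the 37 members with no such neighbour 0 were bound, where a count of 0 is compatible with as much as 8.11% (taken as 3 counts), against 5.14% of all genes with none. The members' share was thus near that of genes of the same arrangement where a neighbour was present, and 37 genes are too few to set a count of 0 apart from 5.14%. A summit between such genes counts for both of them, and the neighbours of all 6 bound members were bound by the same summit.

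The neighbours were CG7943 at RpL32, CG5854 at RpS19b, CG8132 at RpL34b, CG13531 at RpL23, Nup37 at RpS27 and Nelf-E at RpL14. Nup37 encodes a component of the nuclear pore and Nelf-E a subunit of the factor that holds RNA polymerase II in promoter-proximal pause. No divergent pair consisted of a pair of ribosomal protein genes. The start sites lay 127 bp apart at RpL14 and Nelf-E, 144 bp at RpS27 and Nup37, 269 bp at RpL34b and CG8132, 309 bp at RpL32 and CG7943, 382 bp at RpS19b and CG5854, and 556 bp at RpL23 and CG13531.

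The summit lay between the start sites at 4 of the 6 bound pairs. It was 2.5 bp from the midpoint at RpL14, 4.5 bp at RpL32, 19.0 bp at RpL23 and 20.5 bp at RpL34b. Over all 371 bound divergent pairs the summit lay between the start sites in 179 (48.2%), at a median of 39.5 bp from the midpoint (quartiles 19.0 and 80.0). The 4 values at ribosomal protein genes were all below that median, on 4 pairs. In the replicates' own lists the summits stood 31 bp (replicate 1) and 11 bp (replicate 2) from the pooled summit at RpL14, 50 and 23 bp at RpL32, 11 and 25 bp at RpL23, and 17 and 19 bp at RpL34b. At RpL14 and RpL32 both shifts were larger than the distance of the pooled summit from the midpoint, and at RpL23 and RpL34b they were of similar size.

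The 50 divergent members that were not bound include pairs with closer start sites. RpL7 and Ripalpha were 30 bp apart, RpS15Ab and Lsm10 36 bp, and sta and inc 66 bp. RpL13, a large subunit protein, starts 84 bp from Dref, which encodes the DRE-binding factor. The strongest region at that pair had a pooled signal of 43.6, a summit in the 5' UTR of Dref and an IDR of 0.0794, with 25.1 in replicate 1 and 17.7 in replicate 2.

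**Figure D2:**
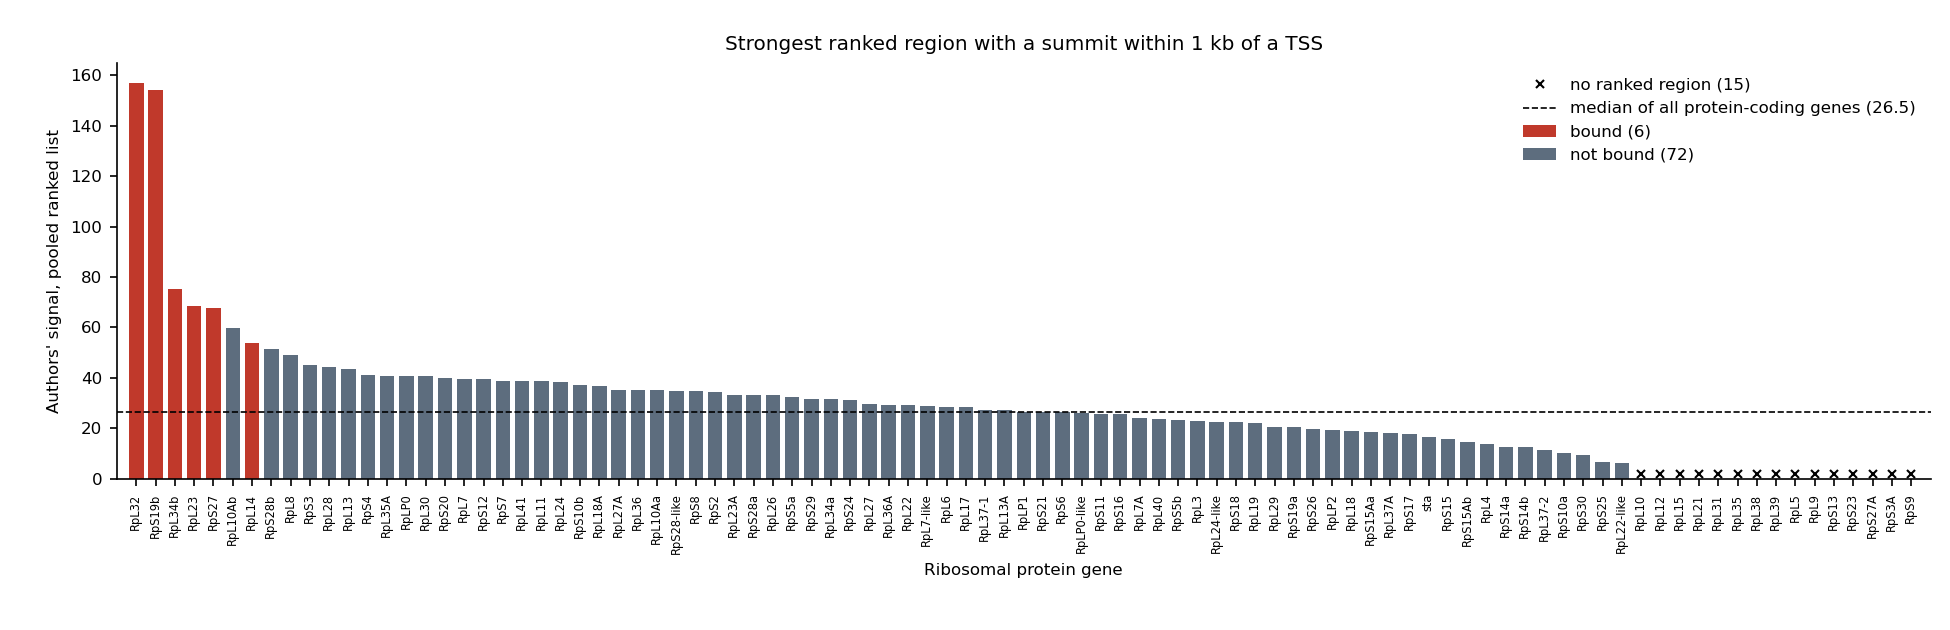
The authors' pooled signal (y axis) of the strongest ranked region with a summit within 1 kb of a TSS, for each of the 93 ribosomal protein genes in falling order. Red bars are the 6 bound genes, grey bars 72 genes with a region that did not pass, crosses 15 genes with none, and the dashed line is the median of all protein-coding genes, 26.5.

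Below the threshold, the authors' ranked list of the pooled samples gave a value to most members. A ranked region of any reproducibility had its summit within 1 kb of a TSS at 78 of 93 members (83.9%), against 88.5% of all protein-coding genes. The strongest such region had a median signal of 29.6 at members (quartiles 22.2 and 38.8), against 26.5 at all genes (quartiles 19.8 and 35.2). This value is the maximum over all annotated TSSs of a gene, a mean of 1.7 at members and 1.41 at all genes, without adjustment. Of the 78 members 47 (60.3%) stood above the median of all genes. Large subunit genes had a median of 30.8 and 31 of 44 above it, and small subunit genes a median of 26.5 and 16 of 34 above it. In the replicates' own lists the median was 19.2 at members against 16.9 at all genes in replicate 1, but 14.6 against 15 in replicate 2, so the higher level of members was not present in replicate 2.

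**Figure D3:**
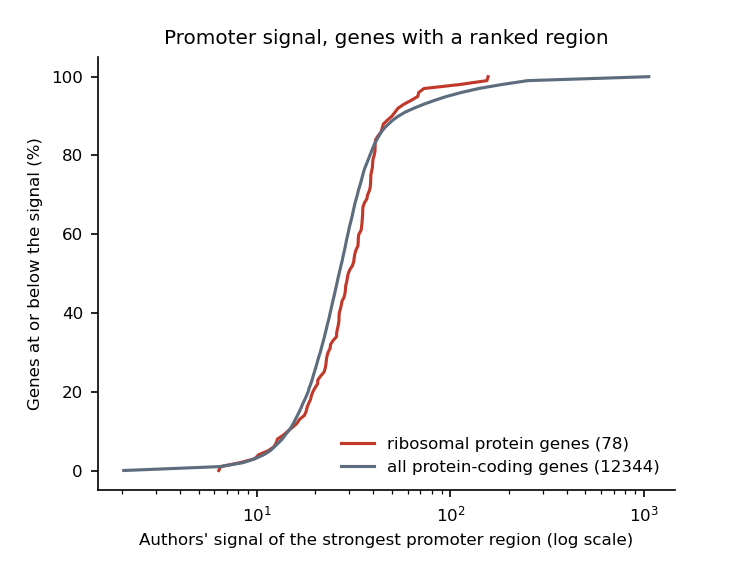
Share of genes (y axis) at or below a given pooled signal of the strongest promoter region (x axis, log scale), for 78 ribosomal protein genes (red) and 12344 protein-coding genes (grey) with a ranked region. The red curve runs to the right of the grey one at the middle, with medians of 29.6 and 26.5, and ends at 157, where the grey curve goes on to higher values.

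After RpL10Ab, the strongest regions that did not pass were at RpS28b with a pooled signal of 51.5, RpL8 with 49.2, RpS3 with 45.2, RpL28 with 44.4, RpL13 with 43.6, RpS4 with 41.2, RpL35A and RpLP0 with 40.8 each and RpL30 with 40.6. RpLP0 is the core of the acidic stalk of the large subunit, and RpS3 sits at the mRNA entry of the small one. Upstream of the TSS lay the regions of RpS4 (24 bp), RpL13 (101 bp, in the 5' UTR of Dref), RpL28 (209 bp) and RpS28b (740 bp). Those of RpL30, RpLP0 and RpS3 lay in an intron 35, 49 and 187 bp downstream, and those of RpL35A and RpL8 in a coding exon 755 and 900 bp downstream. Over all members with a region, 37 of 78 strongest summits were upstream (47.4%), against 50.1% over all genes, at a median distance of 350 bp, against 434 bp.

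The weakest listed regions of the pooled list were at RpL22-like with 6.33, RpS25 with 6.52, RpS30 with 9.59, RpS10a with 10.1 and RpL37-2 with 11.6. In the replicates' own lists RpS10a was near the medians of all genes, with 15.9 in replicate 1 and 15.4 in replicate 2, RpL37-2 had 14 in replicate 2 alone, and the other 3 had no region. No ranked region of the pooled list lay within 1 kb of a TSS of 15 members, namely RpL5, RpL9, RpL10, RpL12, RpL15, RpL21, RpL31, RpL35, RpL38, RpL39, RpS3A, RpS9, RpS13, RpS23 and RpS27A. Of these 12 had none in either replicate's own ranked list as well, while RpL31 had 4.47 in replicate 2, RpS23 17.2 in replicate 1 and RpS27A, a fusion with ubiquitin, 16.6 in replicate 1.

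The replicates' own values were then set side by side. Over the 65 members that had a region in each of the replicates Spearman's rho was 0.476, and over the 59 of them that were not bound 0.307, where all 8792 protein-coding genes with both had 0.472. These are descriptions across genes, which share libraries and a control and are not independent replicates. On the log2 scale, the median of replicate 1 over replicate 2 was 0.30 over the 65 members (SD 0.55) and 0.21 over all genes (SD 0.70). Each replicate's list has its own unstated scale and unknown depth, so these offsets cannot be read as a difference in binding.

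**Figure D4:**
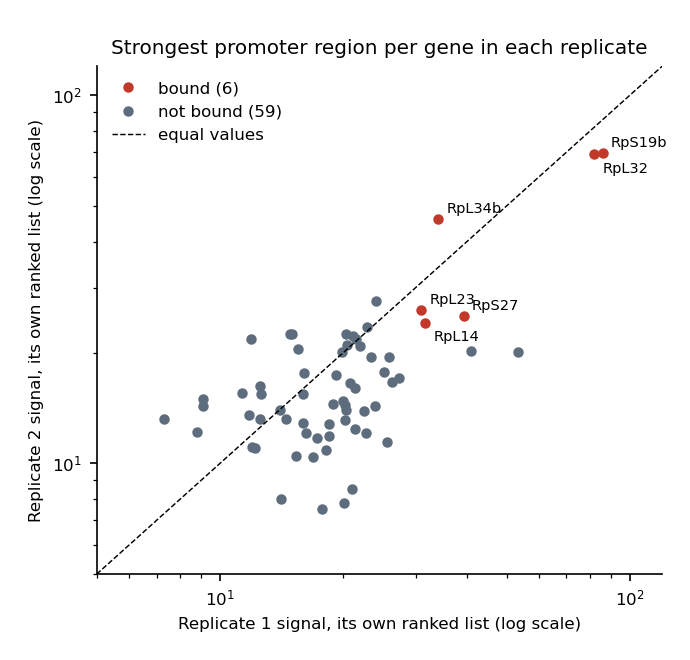
Signal of the strongest region within 1 kb of a TSS in replicate 1's own ranked list (x axis, log scale) and in replicate 2's (y axis, log scale) for 65 ribosomal protein genes. RpL32 and RpS19b (red) stand apart at 81.9 and 85.8 in replicate 1 and 69.2 and 69.5 in replicate 2, RpL34b follows, and the other 3 bound genes border on the genes that were not bound (grey).

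By role, 4 of 54 large subunit genes were bound (7.41%, interval 2.92 to 17.6) and 2 of 39 small subunit genes (5.13%, interval 1.42 to 16.9), both around the 7.7% of all genes. By chromosome arm, 3R carried 4 of the bound members among its 23 (17.4%, against 8.1% of all genes on that arm). Arms 2R and 3L carried 1 bound member each, among 21 (4.76%, against 6.56% of all genes there) and 14 (7.14%, against 8.62%). These differences were not tested. The 19 members on 2L and the 15 on X had none, which allows up to 15.8% and 20% at 3 counts, beside 7.72% and 7.7% of all genes on these arms. RpS3A, the member on chromosome 4, was not bound, nor was any of the 80 genes there.

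Paralogues were grouped by the shared stem of their symbols alone. Among 13 such groups with 27 genes, 2 genes were bound, RpS19b and RpL34b (7.41%, interval 2.06 to 23.4). This compares with 6.06% of the 66 members without a paralogue and 7.7% of all genes. At both, the other copy had a lower signal, which follows largely from the choice of pairs in which only 1 copy passed the threshold. RpS19b had 154 in the pooled list, at the summit in an intron of CG5854, 879 bp upstream of the RpS19b TSS. Its paralogue RpS19a on X, the widely used copy, had 20.6, with 8.87 in replicate 1 and no region in replicate 2. RpL34b had 75.1, against 31.7 for RpL34a, with 20.2 in replicate 1 and 13.1 in replicate 2. In other groups no copy was called. RpL22 had 29.1 in the pooled list (14.5 in replicate 1 and 13.2 in replicate 2), beside 6.33 for RpL22-like, which had no region in either replicate's own list. RpS10b had 37.3 beside 10.1 for RpS10a in the pooled list, but in the replicates' own lists the copies were close, with 18.9 and 14.5 at RpS10b in replicates 1 and 2 beside 15.9 and 15.4 at RpS10a. The pooled region of RpS10a lay 869 bp upstream of its TSS, in an intron of tau. RpS14a and RpS14b lie in tandem and had the same region, at 12.5. How reads that match several copies were treated is not given in the sources used here, so values at near-identical copies are uncertain.

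The promoters of the members carried the TCT initiator, DRE and Motif 1 known for ribosomal protein genes at higher shares than the promoters of all genes. This checks the gene list and says nothing of binding. The 4 letters CTTT with the C within 5 bp of the TSS, on the gene's strand, stood for a TCT-type initiator, at 1 TSS per gene (the one with most transcripts). They were at 44 of 93 members (47.3%), against 5.63% of all protein-coding genes. With any annotated TSS allowed they were at 58 members (62.4%), against 8.07% of all genes. The DRE (TATCGATA, either strand, from 250 bp before to 50 bp after the same TSS) was at 28 members (30.1%), against 9.23%. The Motif 1 core GTCACACT was at 11.8% of members against 6.69%. Counted beside these marks and not part of the check, the E-box CACGTG was at 10.8% against 4.2%, and AAATAT at 66.7% against 53.3%.

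The start sites of 5 of the 6 bound members, all but RpL23, and of the paralogues of bound members are shown here. They run from 20 bases before the TSS to the first 10 bases of the transcript. Where CTTT has its C within 5 bp of the TSS, only the first such CTTT is in capitals. For bound members the TSS nearest to the summit was taken.
RpL32, chr3R:30046152-30046181, minus strand: ttttttcacaccaccagCTTTttcttttcg
RpS19b, chr3R:23933521-23933550, minus strand: acgtcacttgccaatcgtccattttgacta
RpS19a, chrX:16637874-16637903, plus strand: cgcagccaacttcacgcgccttgttCTTTt
RpL34b, chr3R:9401217-9401246, minus strand: gtcgtgcgcgaacagggttgccacCTTTct
RpL34a, chr3R:26059258-26059287, minus strand: aatttttcttccagctctagcttctcttct
RpS27, chr3R:25247505-25247534, minus strand: ccagctgttcagcattatttagtgcattct
RpL14, chr3L:8600986-8601015, plus strand: ccgagctgtcaaaaaagttCTTTccttctc
CTTT stood at these start sites of RpL32, RpS19a, RpL34b and RpL14.

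Bound members were then set against these letters. Of the 62 members with AAATAT 4 were bound (6.45%), and of the 31 without it 2 (6.45%). Over all genes the shares were 7.97% with it and 7.4% without. None of the 28 members with a DRE was bound (upper limit 10.7%, at 3 counts), against 7.38% of all 1287 genes with a DRE, and 6 of the 65 members without one were bound (9.23%), against 7.73% of all genes without one. The E-box was at 2 of the 6 bound members (33.3%) and 8 of the 87 unbound (9.2%), against 5.03% of all bound genes. The Motif 1 core was at 1 bound member (16.7%) and 10 unbound (11.5%), against 8.1% of all bound genes. These shares rest on 6 bound members and were not tested. Of the 44 members with the initiator letters at the TSS with most transcripts 2 were bound (4.55%), against 7.64% of all genes with them. Of the 49 members without them there 4 were bound (8.16%), against 7.71% of all genes without them. With any annotated TSS allowed the order among members was reversed. Then 4 of 58 members with the letters were bound (6.9%), against 11.8% of all genes with them. Of the 35 members without them 2 were bound (5.71%), against 7.34% of all genes without them. Under this rule a gene with more annotated start sites has more places for the letters and for a nearby summit. Members had a mean of 1.7 start sites and all genes 1.41, and the shares were not adjusted for this number. Strongest promoter signals had a median of 29.6 in members with a DRE and 30.7 in members without, against 26.4 and 26.6 in all genes with and without it. Members with the initiator letters at the TSS with most transcripts had a median of 26.6 and those without 33.3, against 26.2 and 26.6 in all genes. With any annotated TSS allowed the medians were 27.9 and 32.5, against 28.1 and 26.4 in all genes. Members with AAATAT had a median of 32.1 and those without it 28.5, against 26.4 and 26.7 in all genes.

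Base composition at the member summits was mixed. The 100 bp around the summit held 30% G and C at RpL23, 34% at RpL34b, 40% at RpL32, 42% at RpL14, 46% at RpS19b and 49% at RpS27. The median of these 6 was 41%, against 31% (quartiles 26 and 38) at the other 762 promoter summits taken as the strongest of a gene. At 4 of the 6 the summit held less G and C than the mean of windows 300 bp to each side, and RpL14 (42% against 40%) and RpS27 (49% against 34%) went the other way. At the other promoter summits 81.8% were below their flanks.

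**Figure D5:**
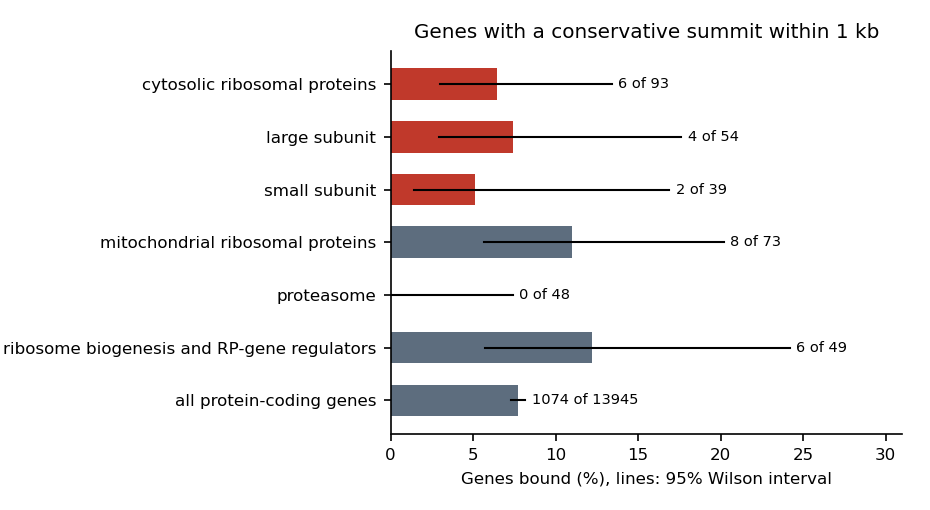
Share of genes with a conservative summit within 1 kb of a TSS (x axis, percent) for the ribosomal protein genes and their subunits (red) and for 3 other lists and all protein-coding genes (grey), with 95% Wilson intervals as lines and counts beside them. The ribosomal protein share, 6.45%, has an interval that holds the 7.7% of all genes.

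Beside lists of like function, the 93 genes were neither the most nor the least bound. Of 73 mitochondrial ribosomal protein genes 8 were bound (11.0%, interval 5.66 to 20.2), against 7.7% of all genes. Their median signal was 326, where the 6 cytosolic peaks had 71.9. The 3 strongest were mRpL41 with 595, mRpS23 with 531 and mRpL23 with 487. All 8 had a divergent neighbour, as did 58 of the 73 (79.5%). Of these 58, 13.8% were bound, against 12.2% of all genes with a divergent neighbour. Of 48 proteasome genes 0 were bound, with a Wilson interval that ends at 7.41%, below the 7.7% of all genes. A count of 0 taken as 3 counts gives 6.25%. These differences in share were not tested, and the intervals of these lists overlap one another.

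Of 49 genes of ribosome biogenesis and of the control of ribosomal protein genes, 6 were bound (12.2%, interval 5.73 to 24.2), against 7.7% of all genes. Among them, the pooled signal was 557 at eIF6, a factor of large subunit maturation, 178 at Ns2, a nucleolar GTPase, 71.3 at Xrp1, a transcription factor of the Minute response, 67.6 at Nop56, a core protein of box C/D snoRNPs and 60.1 at Mnt, the antagonist of Myc. The summits at these genes were upstream of the TSS, the farthest 700 bp at Nop56. Dref, M1BP, Trf2 and Myc, which encode regulators of ribosomal protein genes or of growth, were not bound.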

How the data were processed

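Regions came from the authors' deposited lists for 2 biological replicates, on dm6 per the labels. Per the deposited text with each sample, regions were derived from the replicates' alignments and 1 control, which was not analysed here. Peak caller and aligner are not given in the sources used here. The deposited signal is the authors' peak strength, of unstated scale, so its levels are comparable only within a list. Values of the replicates' own lists are given side by side without a common scale. The deposited score is the authors' scaled IDR, and thresholded lists begin at 830. The deposited −log10 values give the IDR. The conservative list held 1814 regions, the optimal 1934, replicate 1's own 1284 and replicate 2's own 1027.

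Genes and TSSs came from Ensembl release 115 and sequence from RefSeq, both of the same assembly. The summit was column 2 plus column 10, given from 1. Python 3.11.15, pandas 2.3.3 and scipy 1.17.1 were used. The linking of summits to genes was tested on simulated data. Shares have 95% Wilson intervals, and these and the limits at 3 counts cover counting error only. Depth is unknown.

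The members, lists and motifs were chosen with earlier results of these data known. Named genes were the bound members, their paralogues and neighbours, the 10 strongest and 5 weakest unbound members, and bound biogenesis genes, of which 1 is not reported here. Any other gene named was chosen after its values were seen. All 52 biogenesis symbols matched, directly or as RefSeq synonyms, and gave 49 genes once repeats of a gene were merged. Alternatives covered other lists, distances, TSSs and thresholds.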

Additional observations from a re-analysis of the deposited data

How the results depend on the processing

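The 6 bound members, against 1074 of all genes, became 2 and 607 at an IDR of 0.001 or less, and 2 and 683 with the stronger peaks by signal. With 1 replicate left out, 3 to 5 members and 691 to 861 genes were bound, the lower value in replicate 2's own list. Within 250 bp of a TSS 646 genes were bound, and 4 members. The optimal list bound 6 members, 5 of them shared with the conservative list. In each of these settings the member share was below that of all genes, and with the 5'-most TSS of each gene alone it was 6.45% against 6.39%. The median promoter signal was 25.8 at members and 23.2 at all genes for regions within 500 bp, 31 at all genes within 2000 bp (34.5 at members), and 24.8 at all genes with absent regions counted as 0 (26.6 at members). The number of bound members with a divergent neighbour was 5 with start sites within 500 bp and 6 within 2000 bp, with neighbours of any biotype and with the optimal list. No paired analysis was possible because both replicates formed 1 group. Unknown depth limits what weak or absent regions show, since no read counts were at hand.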

Other observations

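The nearest conservative summit to any TSS was at a median of 23641 bp over the 92 members on arms with a peak, against 22587 bp over 13865 protein-coding genes. Within 2000 bp the bound members became 8 (8.6%, against 10.2% of all genes) by the addition of RpS25, 1544 bp from a summit, and RpL31, 1680 bp from one. RpS25 was among the members of weakest promoter signal and RpL31 had no ranked region within 1 kb in the pooled list. RpS19a, the paralogue of the bound RpS19b, had its nearest conservative summit at 2655 bp.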
